A study of Mus musculus with 24 samples.

Results

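The glucocorticoid receptor and the chaperones that fold it were followed as 10 genes of a count table of 55341 gene names, across 12 groups of mouse cells. The genes were taken by name: Nr3c1, Fkbp4, Fkbp5, Hsp90aa1, Hsp90ab1, Ptges3, Stip1, Hspa8, Bag3 and Unc45a. All 10 passed the low-count filter, which kept 16934 genes. As whole genes on mm10, the table places Fkbp4 at 128429735 to 128438677 of chromosome 6 (minus strand), Fkbp5 at 28399094 to 28517527 of chromosome 17 (minus strand), Hsp90aa1 at 110690605 to 110702728 of chromosome 12 (minus strand) and Hsp90ab1 at 45567775 to 45573271 of chromosome 17 (minus strand). It places Ptges3 at 128058954 to 128077272 of chromosome 10 (plus strand), Stip1 at 7020702 to 7039967 of chromosome 19 (minus strand), Hspa8 at 40800984 to 40810087 of chromosome 9 (plus strand), Bag3 at 128523616 to 128546981 of chromosome 7 (plus strand) and Unc45a at 80325292 to 80341005 of chromosome 7 (minus strand).

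The glucocorticoid receptor is a transcription factor that waits in the cytosol until a steroid binds it. Heat shock protein 70 receives the receptor first, an organizer protein passes it to heat shock protein 90, and the cochaperone p23 closes the complex that can bind hormone. Immunophilins of the FKBP family sit on that complex: the one encoded by Fkbp5 lowers the receptor's affinity for hormone, while its paralog encoded by Fkbp4 links the receptor to dynein for transport to the nucleus. Fkbp5 is itself a classical target of the receptor, so the pair forms a short feedback loop.

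The cells were of the line 3134, a mouse mammary adenocarcinoma line. All of them carried a hairpin RNA against NIPBL, the cohesin loader, which IPTG switches on, and all carried a piggyBac construct. The constructs encoded the NIPBL mutants that the labels call C1-C2, C2 and C1, or wild-type NIPBL (WT), or nothing (empty vector, EV). Cells with each of these constructs were kept with 1 mM IPTG for 3 days, and EV cells also without IPTG, all in charcoal-stripped serum, which is depleted of steroids. Each of the 6 cell states was then given 100 nM dexamethasone, a synthetic ligand of the receptor, or ethanol for 2 hours, with 2 libraries a group. No cells without the hairpin received IPTG, each construct is represented by a single line, and the labels do not say what the mutants change. The study calls the replicates biological but does not say that they were separate cultures, so the p-values speak of the spread among these libraries, which may be technical.

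The dexamethasone libraries held 45.0 to 72.9 M counts and the ethanol libraries 32.5 to 42.7 M, and the library names run in separate number blocks for dexamethasone and ethanol, so that treatment and library batch cannot be told apart. Taken against each gene's own mean over all libraries, GC-rich genes stood above GC-poor genes in the dexamethasone libraries (by 0.10 to 0.28, log2). In the ethanol libraries they stood lower (by -0.26 to -0.16). Centring on that mean ties the signs of the treatments together. Nipbl lay at 48.0 to 73.3 CPM (counts scaled to library size) in the 20 libraries with IPTG and at 151 to 186 CPM in the 4 without. With WT it stood at 70.4 and 62.7 CPM in ethanol and 66.2 and 55.1 CPM in dexamethasone. With EV and IPTG it stood at 65.1 and 62.6 CPM in ethanol and 54.4 and 56.5 CPM in dexamethasone. These counts thus do not show NIPBL made from the constructs, and whether they take in reads of the constructs is not stated. Of 8 mammary epithelial markers 1, Krt14, passed 1 CPM as a median, and their summed level was 15.5 to 23.4 CPM in dexamethasone and 14.4 to 22.4 CPM in ethanol. Epcam was at 0 counts in every library, and Krt18 and Krt5 had a median of 0. Of 6 mesenchymal markers 5 passed, with sums of 6846 to 8361 CPM in dexamethasone and 6768 to 8295 CPM in ethanol. Col1a1 passed only narrowly (median 1.01 CPM), and Col3a1 was near 0 (median 0.07 CPM). Most markers of mammary epithelium, the tissue of origin by the label, were thus absent or near 0. Summed leukocyte markers lay at 8.15 to 11.6 CPM in dexamethasone and 7.63 to 11.8 CPM in ethanol, nearly all of it Cd68, and summed endothelial markers reached at most 0.488 CPM. Summed adipocyte markers were 1.87 to 4.91 CPM in dexamethasone and 0.277 to 0.749 CPM in ethanol, mostly Fabp4, and their part in the results was not tested.

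A label conflict touches the C1-C2 cells: replicate 2 in ethanol carries dexamethasone in its treatment label and ethanol in its title, and it was grouped by its title. In that library Fkbp5 stood at 81.2 CPM, Nr3c1 at 186 CPM, Hspa8 at 667 CPM and Unc45a at 53.6 CPM, each within the range of the other ethanol libraries and outside that of the dexamethasone libraries.

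RefSeq promoters (GRCm38.p6, the same assembly as mm10) were at hand for 6 of the 10 genes, namely Fkbp4, Unc45a, Bag3, Ptges3, Fkbp5 and Stip1. Those of Fkbp5, which responded most to hormone, of its paralog Fkbp4, which did not pass the test, and of Bag3, the other gene with a match to the letters in capitals, are printed 5′ to 3′ along the gene, from 250 bases before the annotated start to 50 bases after it. Capitals mark GAANNTTC, the letters of 2 facing units of the element bound by heat shock factors.
Fkbp5, chr17:28486100-28486399, minus strand: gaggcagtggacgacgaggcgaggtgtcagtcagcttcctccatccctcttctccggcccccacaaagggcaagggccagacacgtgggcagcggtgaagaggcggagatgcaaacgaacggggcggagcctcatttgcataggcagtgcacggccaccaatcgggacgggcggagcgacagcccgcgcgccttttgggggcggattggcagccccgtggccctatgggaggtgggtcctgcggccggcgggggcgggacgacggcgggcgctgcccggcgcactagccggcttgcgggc
Fkbp4, chr6:128438607-128438906, minus strand: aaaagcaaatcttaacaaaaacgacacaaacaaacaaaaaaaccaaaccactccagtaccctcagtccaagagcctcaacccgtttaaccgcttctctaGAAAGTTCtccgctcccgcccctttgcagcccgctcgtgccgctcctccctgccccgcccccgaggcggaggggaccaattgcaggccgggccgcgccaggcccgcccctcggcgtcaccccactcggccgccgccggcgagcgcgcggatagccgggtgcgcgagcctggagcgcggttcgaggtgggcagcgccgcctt
Bag3, chr7:128523333-128523632, plus strand: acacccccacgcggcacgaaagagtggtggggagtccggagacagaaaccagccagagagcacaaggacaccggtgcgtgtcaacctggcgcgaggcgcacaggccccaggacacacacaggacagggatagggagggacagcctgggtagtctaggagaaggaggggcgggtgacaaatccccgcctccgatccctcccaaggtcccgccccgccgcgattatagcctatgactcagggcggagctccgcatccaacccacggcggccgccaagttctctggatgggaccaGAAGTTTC
GAANNTTC, which reads the same on both strands, began 151 bases before the start in Fkbp4 and at base 42 after it in Bag3, and was in none of the other 4 windows. It occurs in 7.86% of all 32851 promoters of the table. A glucocorticoid response element, spelled GNACA and TGTNC with 3 bases between them and the same on both strands, was in 0 of the 6 windows and in 0.475% of all promoters. The longer element, GAANNTTC followed after 2 bases by GAA and searched on both strands, was also in 0 of 6 and in 0.603% of all promoters. The Fkbp5 window starts from a RefSeq transcript that begins inside the gene as counted (chromosome 17, 28399094 to 28517527), so the starts of longer transcripts are outside it, and no match says only that these letters are not in these windows.

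The 10 genes spanned a wide range of levels. On the scale of CPM per kilobase of the counted gene length, Hsp90ab1, the constitutive HSP90, stood far above the rest, with a median of 902 in dexamethasone and 873 in ethanol. Hspa8, the constitutive HSP70, had 210 in dexamethasone and 143 in ethanol, and Hsp90aa1, the inducible HSP90, had 152 in dexamethasone and 160 in ethanol. Nr3c1 and Unc45a were the lowest of the 10 in dexamethasone, with 14.4 and 13.6. In ethanol Fkbp5 was the lowest with 8.25, and in dexamethasone it stood at 44.2, above the receptor. Fkbp4 (131 in dexamethasone, 126 in ethanol), Stip1 (116 in dexamethasone, 111 in ethanol) and Ptges3 (95.2 in dexamethasone, 98.2 in ethanol) formed a middle group, with Bag3 below them (54.0 in dexamethasone, 50.4 in ethanol). Counts per gene length depend on the annotation: the counted length of Fkbp5 is 9468 bases and its longest transcript 3858 bases.

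**Figure D1:**
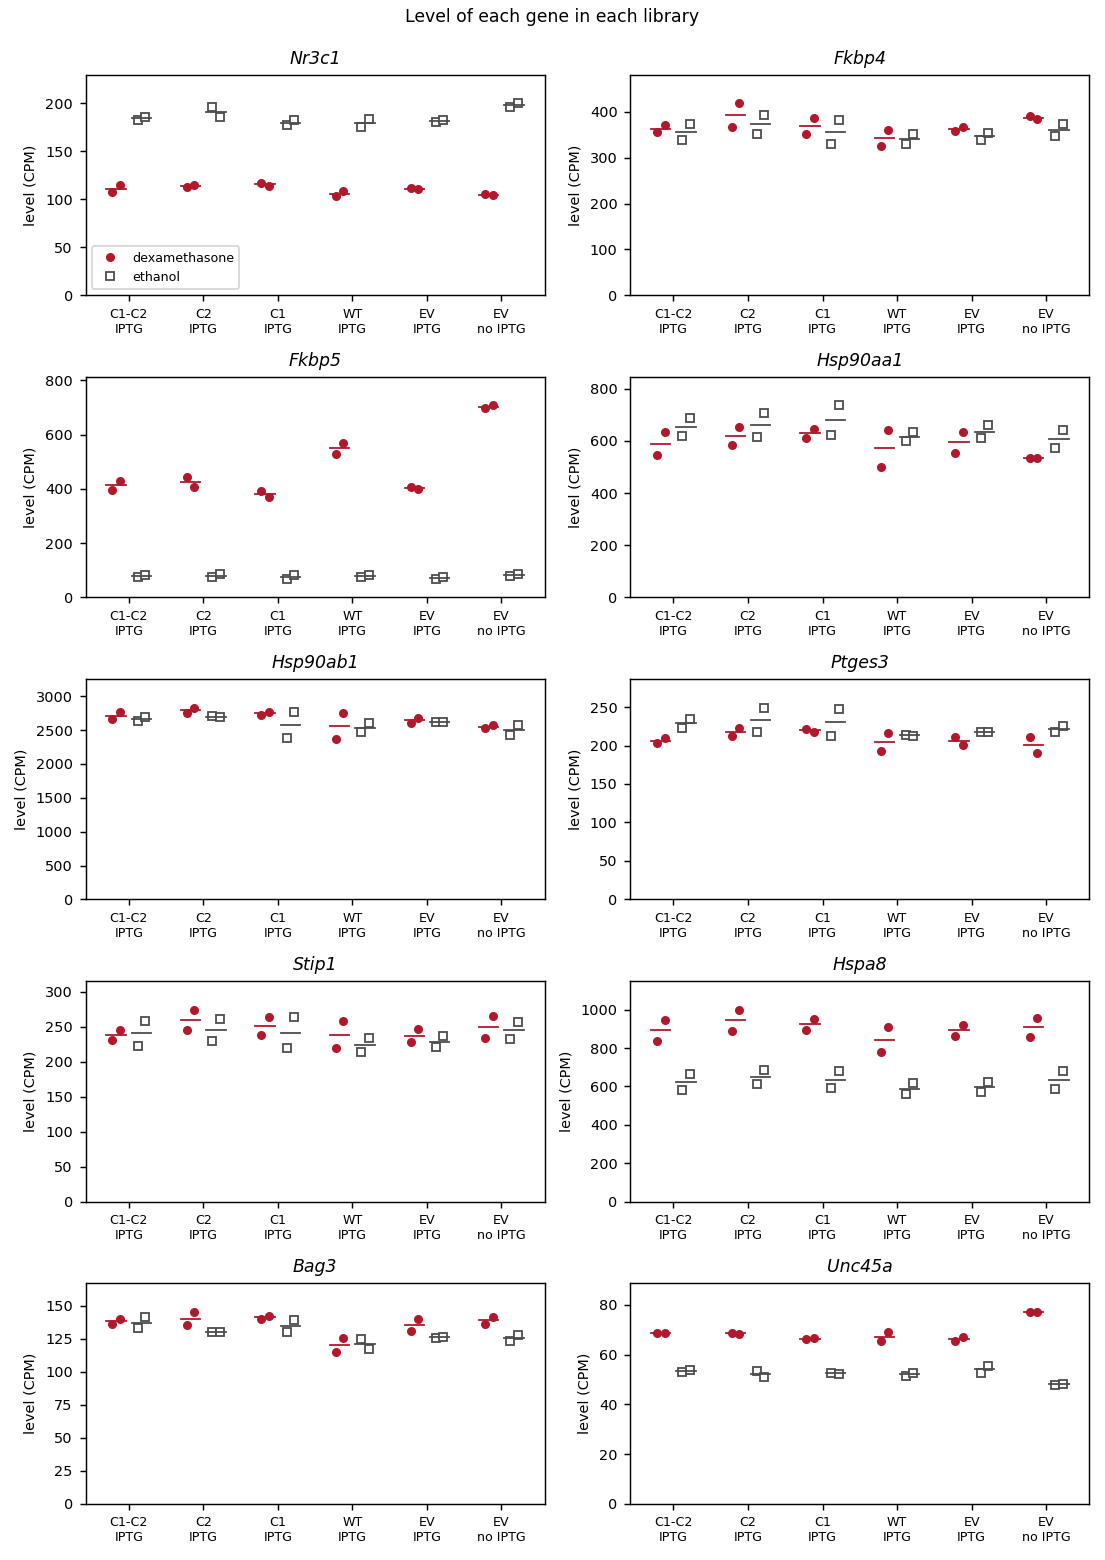
Level of each of the 10 genes in CPM (linear axis from 0) in each of 24 libraries, by cell state; filled circles are dexamethasone libraries, open squares ethanol libraries, and bars the mean of 2. Nr3c1 is lower and Fkbp5, Hspa8 and Unc45a are higher in every dexamethasone library than in any ethanol library, while the treatments overlap for the other 6 genes. The share of all tested genes without overlap was not counted, so how common this separation is among them is not known.

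With dexamethasone, 5 of the 10 genes changed in EV cells without IPTG (4 rose and 1 fell), where 38% of all tested genes were called. In each of the 5 states with IPTG 4 changed (3 rose and 1 fell), against 32.5% of genes called with EV, 28.5% with WT, 32.2% with C1, 32.5% with C2 and 32.3% with C1-C2. Those shares are near the genes' own counts, so the number called says little about these genes; what follows is which of them moved and how far. The median log2 fold change over the 10 genes was 0.01 to 0.08 in the 6 states, beside 0.00 to 0.02 over all tested genes. The test was edgeR's quasi-likelihood test with Benjamini-Hochberg adjustment across the whole tested table, and "rose" and "fell" below mean an adjusted p under 0.05. In these bulk libraries fewer cells with a transcript and less of it per cell cannot be told apart.

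Fkbp5 made the largest move. In dexamethasone it stood at 397 and 430.0 CPM in C1-C2 cells, 445 and 406 CPM in C2 cells, 391 and 369.7 CPM in C1 cells, 529 and 569.6 CPM in WT cells, 407 and 398 CPM in EV cells with IPTG, and 698 and 708 CPM in EV cells without IPTG. In ethanol it stood at 76.0 and 81.2 CPM in C1-C2 cells, 75.3 and 85.1 CPM in C2 cells, 68.5 and 82.6 CPM in C1 cells, 75.2 and 81.4 CPM in WT cells, 69.4 and 75.1 CPM in EV cells with IPTG, and 80.2 and 87.7 CPM in EV cells without IPTG. The treatments were far apart, and the ethanol libraries of all states lay close together between 68.5 and 87.7 CPM. The order of the dexamethasone means was EV without IPTG (703 ± 6.96 CPM, SD, n = 2), WT (549 ± 28.8), C2 (425 ± 27.2), C1-C2 (413 ± 23.6), EV with IPTG (402 ± 6.33) and C1 (380.3 ± 14.9). The first and the second of these stood clear of each other and of the rest, the libraries of C2, C1-C2 and EV with IPTG overlapped, and both C1 libraries lay just below them.

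The fold changes of Fkbp5 were highest in the same 2 states. It rose 8.38-fold in EV cells without IPTG (log2 3.07, SE 0.08) and 5.57-fold in EV cells with IPTG (log2 2.48, SE 0.08). It rose 7.01-fold with WT (log2 2.81), 5.03-fold with C1 (log2 2.33), 5.31-fold with C2 (log2 2.41) and 5.26-fold with C1-C2 (log2 2.39). The edgeR adjusted p was 7.03e-16 or smaller in all 6.

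Nr3c1, the receptor gene itself (chromosome 18, 39410545 to 39519421), fell in all 6 states. Its 12 dexamethasone libraries lay between 103 and 117 CPM (median 111), and its 12 ethanol libraries between 175 and 199.7 CPM (median 183). No library of one treatment reached into the other, and how many of all tested genes separate in this way was not counted. The log2 fold change was -0.73 with C1-C2, -0.75 with C2, -0.64 with C1, -0.76 with WT, -0.71 with EV and IPTG, and -0.92 without IPTG, a fall of 1.56-fold (C1) to 1.89-fold (EV without IPTG), with an SE of 0.05 in each (edgeR adjusted p 1.01e-10 or smaller). In EV cells without IPTG it stood at 105 and 105 CPM in dexamethasone and at 196 and 199.7 CPM in ethanol, the lowest mean of the dexamethasone groups and the highest of the ethanol groups. The other dexamethasone means were close together, with 115 ± 1.96 CPM for C1, 113 ± 1.17 for C2, 111 ± 5.06 for C1-C2, 111 ± 0.40 for EV with IPTG and 106 ± 3.94 for WT (SD, n = 2). The libraries of C1-C2 (107 and 114 CPM) lay on either side of those of C2 and of EV with IPTG, and both WT libraries (103 and 109 CPM) lay below both of EV with IPTG (111 and 111 CPM).

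Hspa8, which hands the unfolded receptor onward, rose in all 6 states by about the same amount. It lay between 778 and 999.7 CPM (median 903) in the dexamethasone libraries and between 561 and 687 CPM (median 613) in the ethanol libraries, again without overlap. How many of all tested genes separate like this was not counted. The log2 fold change was 0.51 with C1-C2, 0.54 with C2, 0.54 with C1, 0.52 with WT, 0.58 with EV and IPTG and 0.52 without IPTG (SE 0.11 each, edgeR adjusted p 0.000466 to 0.00139). Replicate 2 was higher than replicate 1 in 12 of 12 groups, by a mean of 0.16 on the log2 scale, and the same held for Hsp90aa1 and Stip1 (12 of 12 groups, means 0.17 and 0.16). The exons of Hspa8 overlap the small nucleolar RNA genes Snord14c, Snord14d and Snord14e, which had 0 counts in every library.

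Unc45a, a cochaperone best known for helping HSP90 fold myosin, also rose in all 6 states. Its level was 77.0 and 77.3 CPM in dexamethasone and 48.0 and 48.4 CPM in ethanol in EV cells without IPTG, a rise of 1.60-fold (log2 0.68, SE 0.05, edgeR adjusted p = 2.63e-11). In the 10 dexamethasone libraries with IPTG it lay between 65.3 and 69.1 CPM, and in the 10 ethanol libraries with IPTG between 50.8 and 55.5 CPM. EV cells without IPTG thus had the highest level of the gene in dexamethasone and the lowest in ethanol. With IPTG the log2 fold change was 0.37 with C1-C2, 0.39 with C2, 0.34 with C1, 0.37 with WT and 0.30 with EV (SE 0.05 each, edgeR adjusted p 2.80e-05 or smaller).

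Bag3, which releases substrates from HSP70, rose by a small amount in 1 state. It stood at 136 and 142 CPM in dexamethasone and at 123 and 128 CPM in ethanol in EV cells without IPTG (log2 0.15, SE 0.06, edgeR adjusted p = 0.0374). The call was lost when any 1 of those 4 libraries was left out (edgeR adjusted p 0.0506 to 0.238), without a low-count filter (0.0643), with the replicate block within treatment (0.0571), with the conflicting C1-C2 library moved (0.0804) and with the GC trend removed (0.337). In the 5 states with IPTG the log2 fold change was -0.01 to 0.11 and did not pass.

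The remaining 5 genes, the body of the chaperone machine, passed in no state as tested here, and their treatments overlapped. In EV cells without IPTG Hsp90aa1 was called lower in 2 of 9 other settings with no library left out. With a replicate block its log2 fold change was -0.18 (edgeR adjusted p = 0.0125, against 0.266 without the block). In the same cells Ptges3 was called lower when replicate 1 in dexamethasone was left out (log2 -0.22). With that library it did not pass (edgeR adjusted p = 0.114). Hsp90ab1 lay between 2375 and 2833 CPM in dexamethasone and between 2389 and 2763 CPM in ethanol, and its largest log2 fold change was 0.09 (95% interval -0.04 to 0.23, C1). Hsp90aa1 lay between 502 and 654 CPM in dexamethasone and between 571 and 736 CPM in ethanol, with log2 fold changes of -0.18 to -0.10. These intervals are the width of what the libraries can show, and that of Hsp90aa1 in EV cells without IPTG ran from -0.44 to 0.08. Stip1, the organizer that bridges HSP70 and HSP90, lay between 219 and 275 CPM in dexamethasone and between 215 and 264 CPM in ethanol. Fkbp4 lay between 326 and 419 CPM in dexamethasone and between 329 and 394 CPM in ethanol, with log2 fold changes of 0.01 to 0.10, the interval with the highest upper end running from -0.06 to 0.26. Ptges3, which encodes p23, lay between 189.6 and 223 CPM in dexamethasone and between 212 and 249 CPM in ethanol, with log2 fold changes of -0.15 to -0.06.

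Ptges3 is uncertain because a processed pseudogene of it, Ptges3-ps, took 7.89% to 8.95% of the counts of the pair in dexamethasone and 5.49% to 6.78% in ethanol. Counts assigned to Ptges3-ps rose in all 6 states (log2 0.27 to 0.51, edgeR adjusted p 0.0246 or smaller), and how reads that match both were counted is not stated in the sources used here.

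**Figure D2:**
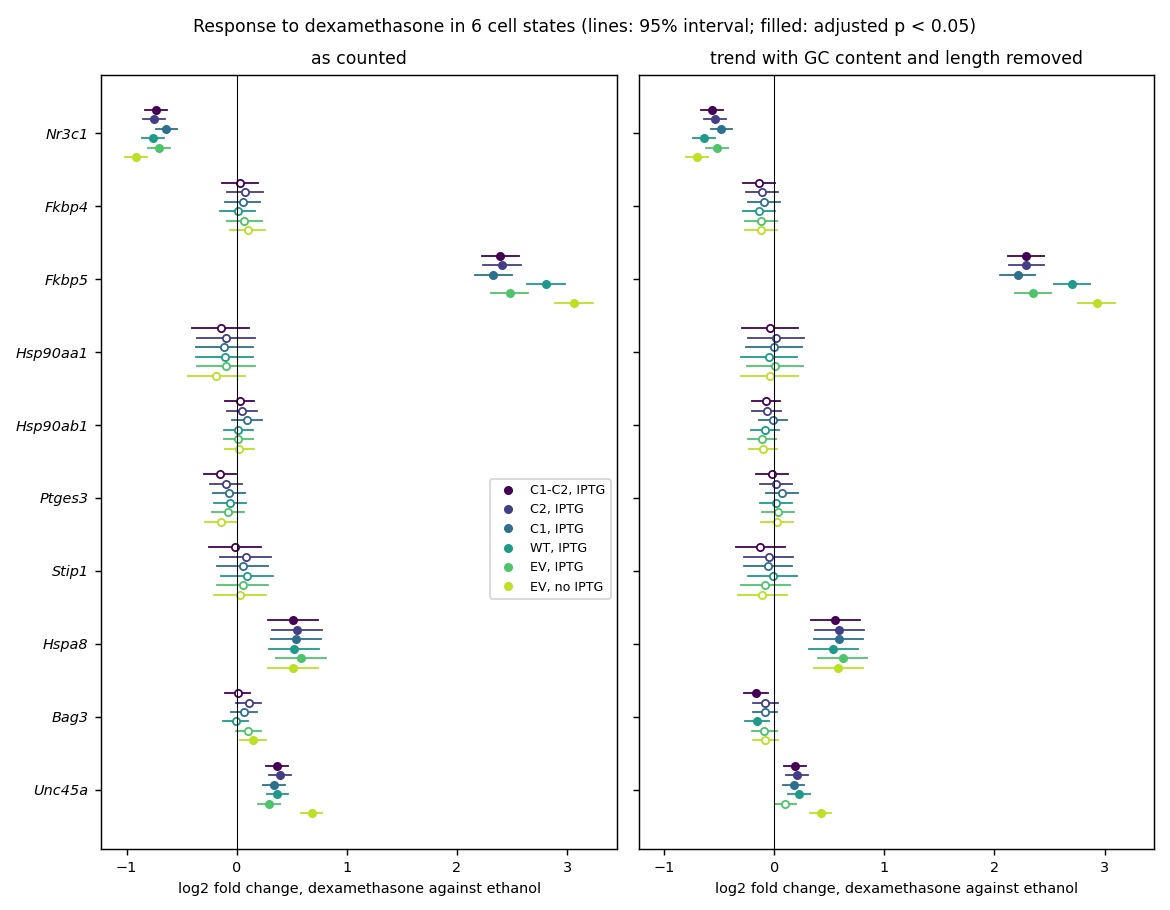
Log2 fold change of each gene for dexamethasone against ethanol in 6 cell states, as counted (left) and with the trend of counts with GC content and transcript length removed (right); lines are 95% intervals and filled points have an adjusted p under 0.05. Fkbp5 reaches 3.07 without IPTG and 2.33 to 2.81 with it, Nr3c1 lies at -0.92 to -0.64, and removing the trend moves Unc45a toward 0 (0.10 in EV cells with IPTG) and leaves Hspa8 at 0.54 to 0.62.

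Since GC-rich genes stood higher in the dexamethasone libraries, the same fit was made with that trend removed from each library. It called 22.4% without IPTG, 20.5% with EV and IPTG, 21.1% with WT, 20.2% with C1, 19.4% with C2 and 20.9% with C1-C2 of all tested genes. Nr3c1, with a transcript of 42.2% GC, then fell by less, with log2 fold changes of -0.70 to -0.48, and still fell in all 6 states. Fkbp5 (51.6% GC) rose by 2.21 to 2.93 and Hspa8 (45.9% GC) by 0.54 to 0.62 on the log2 scale in all 6. Unc45a (58.5% GC) kept its rise in 5 of 6 states, at 0.42 without IPTG and 0.18 to 0.23 with WT or a mutant, and lost it in EV cells with IPTG (0.10, edgeR adjusted p = 0.145). Bag3 (56.1% GC) turned to the other sign, at -0.08 in EV cells without IPTG (edgeR adjusted p = 0.337), and was called lower with WT (-0.16, edgeR adjusted p = 0.0415) and C1-C2 (-0.16, edgeR adjusted p = 0.0320). Small fold changes of the other 5 genes also changed sign under this correction, and none of them passed.

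For the C1-C2 cells the 4 calls were the same when the library with disagreeing labels was left out, with log2 fold changes of 2.43 for Fkbp5, -0.73 for Nr3c1, 0.60 for Hspa8 and 0.36 for Unc45a. With that library moved to dexamethasone, which leaves 1 ethanol library of these cells, Fkbp5 had 1.99. The calls were then lost, as were nearly all calls of any gene in that contrast.

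With NIPBL knockdown, the contrast of EV cells with and without IPTG, most of the genes did not pass in ethanol. Unc45a was the single call of 10, at 52.6 and 55.5 CPM with IPTG and 48.0 and 48.4 CPM without (log2 0.17, SE 0.05, edgeR adjusted p = 0.0232), where 13.4% of all genes were called. This call was lost without replicate 1 (edgeR adjusted p = 0.163) or replicate 2 (0.0903) of the ethanol libraries without IPTG, without replicate 2 of those with IPTG (0.285), and with the GC trend removed (0.163). Fkbp5 stood at 69.4 and 75.1 CPM with IPTG and at 80.2 and 87.7 CPM without (log2 -0.22, SE 0.08, edgeR adjusted p = 0.0820). Nr3c1 stood at 180.1 and 182 CPM with IPTG and at 196 and 199.7 CPM without (log2 -0.13, SE 0.05, edgeR adjusted p = 0.0785). Neither pair of libraries overlapped, and neither difference passed. Over 9 other settings with no library left out, Fkbp5 did pass in 4 and Nr3c1 in 2. Among these, Fkbp5 passed without a low-count filter (edgeR adjusted p = 0.0116) and both passed under a filter of 1 CPM in all libraries (0.0490 for Fkbp5, 0.0268 for Nr3c1).

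In dexamethasone 2 of 10 genes fell with knockdown, where 16.9% of all genes were called. Fkbp5 stood at 407 and 398 CPM with IPTG, against 698 and 708 CPM without (log2 -0.80, SE 0.08, edgeR adjusted p = 1.29e-07). Unc45a stood at 65.5 and 67.1 CPM with IPTG, against 77.0 and 77.3 CPM without (log2 -0.22, SE 0.05, edgeR adjusted p = 0.00164). Nr3c1 stood at 111 and 111 CPM with IPTG and at 105 and 105 CPM without, and did not pass (log2 0.08, SE 0.05, edgeR adjusted p = 0.267). The log2 differences of the HSP90 genes, Hspa8, Stip1, Fkbp4, Ptges3 and Bag3 in dexamethasone ran from -0.09 to 0.15, and none passed.

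The difference of the responses, that with IPTG minus that without, was called for 29 of all tested genes (0.171%), 26 of them lower and 3 higher. That number was 7 to 24 with 1 of the 8 libraries left out (7 without replicate 2 in ethanol with IPTG, 9 without replicate 1 in ethanol without IPTG), 63 with DESeq2 and 85 without a low-count filter. Fkbp5 and Unc45a were among the lower ones. The response of Fkbp5 was smaller by -0.59 on the log2 scale (SE 0.11, edgeR adjusted p = 0.0179) and that of Unc45a by -0.38 (SE 0.07, edgeR adjusted p = 0.00972). Both also passed with DESeq2 and with the GC trend removed (Fkbp5 -0.57, edgeR adjusted p = 0.0212; Unc45a -0.32, edgeR adjusted p = 0.0454). Single libraries decided both calls. Leaving out 1 library gave Fkbp5 a value of -0.66 to -0.53 and ended its call without replicate 1 in ethanol without IPTG (edgeR adjusted p = 0.182), replicate 2 in ethanol with IPTG (0.208), or any of the 4 dexamethasone libraries (0.0787 to 0.126). It gave Unc45a a value of -0.43 to -0.35 and ended its call without replicate 1 in ethanol without IPTG (edgeR adjusted p = 0.0754), replicate 2 in ethanol with IPTG (0.164) or replicate 1 in dexamethasone with IPTG (0.0579). For Nr3c1 the response was 0.21 higher, that is a smaller fall with IPTG, and did not pass (SE 0.07, 95% interval 0.07 to 0.35, edgeR adjusted p = 0.457). Hspa8 differed by 0.07 between the responses, with a 95% interval of -0.25 to 0.39.

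**Figure D3:**
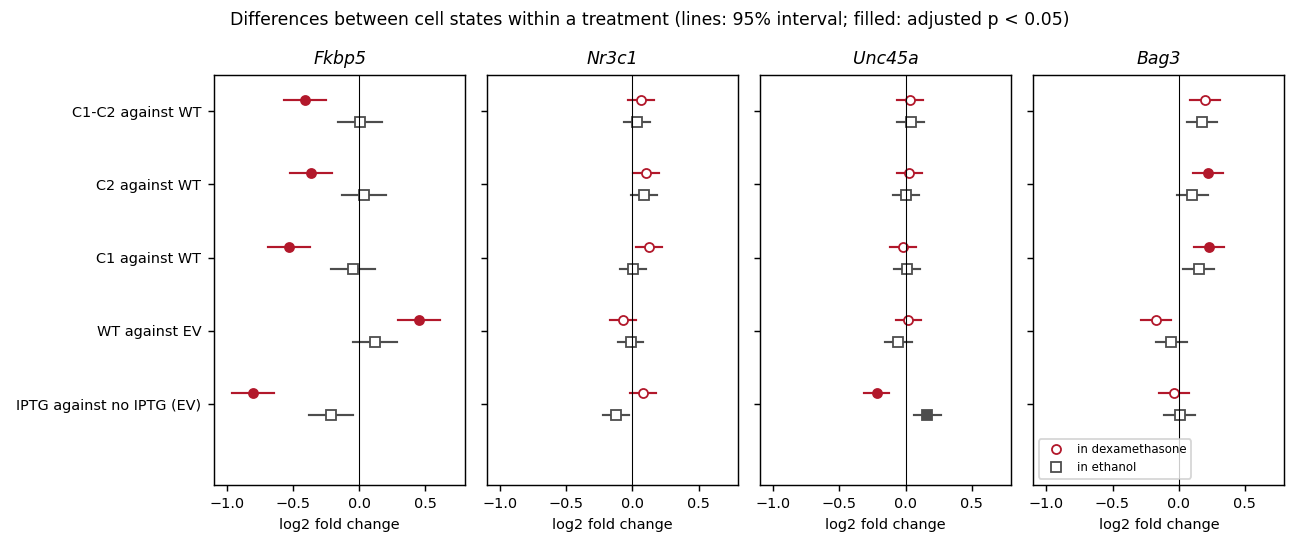
Log2 fold change between cell states within a treatment for 4 genes; circles are dexamethasone, squares ethanol, lines 95% intervals, and filled points have an adjusted p under 0.05. Fkbp5 departs from 0 in dexamethasone (-0.80 with knockdown, 0.45 for WT against EV, -0.53 to -0.37 for the mutants against WT), while in ethanol its values lie between -0.22 and 0.12 and none is filled.

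Wild-type NIPBL was then set against the empty vector, both with IPTG. In dexamethasone Fkbp5 was the single call of 10 genes, where 4.2% of all genes were called (712 genes, and 164 to 1446 with 1 library left out). It stood at 529 and 569.6 CPM in WT cells, against 407 and 398 CPM in EV cells (1.37-fold, log2 0.45, SE 0.08, edgeR adjusted p = 0.00135). Both WT libraries lay between those of EV cells with IPTG and those of EV cells without IPTG (698 and 708 CPM), and the WT cells were not tested against EV cells without IPTG. In ethanol edgeR called 0 of 10 genes, DESeq2 called 0, and 0 were under an unadjusted p of 0.05, where 1.16% of all genes were called. The response of Fkbp5 in WT cells was larger than that in EV cells by 0.33 on the log2 scale (SE 0.11), a difference that did not pass (edgeR adjusted p = 1.00). Unc45a, which in dexamethasone was lower in EV cells with IPTG than without, differed by 0.02 between WT and EV cells (95% interval -0.08 to 0.12, edgeR adjusted p = 0.862).

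The mutants were set against wild-type NIPBL, and these 3 comparisons share the WT libraries, as the contrasts above share the EV libraries with IPTG. In dexamethasone Fkbp5 was lower with each of them, and in ethanol with none. With C1 it stood at 391 and 369.7 CPM, against 529 and 569.6 CPM with WT (log2 -0.53, SE 0.08, edgeR adjusted p = 0.000254). With C2 it stood at 445 and 406 CPM (log2 -0.37, SE 0.08, edgeR adjusted p = 0.00749), and with C1-C2 at 397 and 430.0 CPM (log2 -0.41, SE 0.08, edgeR adjusted p = 0.00661). No mutant library reached a WT library. Leaving out 1 library ended the call for C2 (without its replicate 2, edgeR adjusted p = 0.157) and for C1-C2 (without its replicate 1, 0.136, or replicate 2 of WT, 0.0743), and never that for C1. The mutants were not tested against the empty vector, whose 407 and 398 CPM lie within the range of the mutant libraries.

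Bag3 was higher than with WT in 2 of the mutants in dexamethasone: it stood at 140.1 and 143 CPM with C1 (log2 0.23, SE 0.06, edgeR adjusted p = 0.0161) and at 135 and 146 CPM with C2 (log2 0.22, SE 0.06, edgeR adjusted p = 0.0227), against 115 and 126 CPM with WT. With C1-C2 it stood at 136 and 140.3 CPM and did not pass (log2 0.20, SE 0.06, edgeR adjusted p = 0.0762). The C1 call was lost without replicate 1 of WT or either C1 replicate, and the C2 call without replicate 1 of WT or replicate 2 of C2. Replicate 1 of WT in dexamethasone was the lowest of the 24 libraries for Bag3 and also the lowest for Hsp90ab1, Hsp90aa1, Fkbp4 and Nr3c1.

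Over the 10 genes, 2 were called with C1 (5.33% of all genes), 2 with C2 (5.17%) and 1 with C1-C2 (1.41%) in dexamethasone. These shares rest on single libraries: the number of all genes called was 902 for C1 and 214 to 1319 with 1 library left out, 875 for C2 and 135 to 1530, and 238 for C1-C2 and 43 to 149. For C1 and C2 the highest numbers came without replicate 2 of WT, and the lowest without replicate 2 of the mutant. In ethanol edgeR called 0 of 10 for C1 (2% of all genes), C2 (2%) and C1-C2 (0.768%), as did DESeq2, with 1, 0 and 1 genes under an unadjusted p of 0.05. With the GC trend removed Nr3c1 was also called higher than with WT in dexamethasone for C1 (log2 0.17, edgeR adjusted p = 0.0322) and C2 (log2 0.19, edgeR adjusted p = 0.0215), where the values as counted were 0.13 and 0.10 and did not pass.

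The response to dexamethasone with a mutant minus that with WT was called for 0 of the 10 genes in all 3 mutants by edgeR and by DESeq2, with 1 gene each, Fkbp5, under an unadjusted p of 0.05. Its response was smaller by -0.48 with C1 (edgeR adjusted p = 0.600), -0.40 with C2 (0.634) and -0.42 with C1-C2 (1.00), each with an SE of 0.11. Few genes of any kind passed here: 2 of all tested genes were called for C1 (0.0118%), 1 for C2 (0.00591%) and 0 for C1-C2 (0%), and 2 for WT against EV (0.0118%).

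As counted, with the GC trend left in, some ratios among the transcripts of the receptor complex differed between treatments. The ratio of Fkbp5 to Fkbp4, the rival immunophilins, was 0.282 to 0.543 (median 0.338) in dexamethasone and 0.0603 to 0.0691 (median 0.0640) in ethanol, in CPM per kilobase of counted length. With the longest transcript as length it was 0.662 to 1.28 in dexamethasone and 0.142 to 0.163 in ethanol, so the rank of the pair depends on the length used, while the distance between treatments does not. The 2 HSP90 genes together stood at 68.6 to 76.6 times the level of Nr3c1 in dexamethasone and at 37.5 to 46.8 times in ethanol. The ratio of Hsp90ab1 to Hsp90aa1 was 5.53 to 6.37 in dexamethasone and 4.92 to 5.76 in ethanol, and here the treatments overlapped. With the GC trend removed Hsp90ab1 and Hsp90aa1 had log2 fold changes of -0.10 and -0.04 in EV cells without IPTG. In EV cells with IPTG they had -0.11 and 0.0057, so the higher ratio of the 2 in dexamethasone was not kept in EV cells. Without IPTG Nr3c1 then fell by less (-0.70), while Fkbp5 (2.93) and Fkbp4 (-0.12) stayed far apart. The ratios describe transcripts and were not tested.

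Across the 12 groups the genes whose pattern came closest to a given gene were found by the root mean square difference of centred log2 CPM profiles among 9637 named genes. Nr3c1 came closest to Nes, which encodes the intermediate filament nestin (0.04), Klf3, a transcriptional repressor (0.05), and Ets1, a transcription factor (0.05), where the median over all candidates was 0.40. Next were Arhgap5 and Fam107b. Fkbp5 came closest to Sik1, a salt-inducible kinase (0.12), Nfil3, a transcription factor (0.13), Sphk1, a sphingosine kinase (0.15), Tsku, a secreted proteoglycan (0.16), and Pdk4, a kinase that restrains pyruvate dehydrogenase (0.21), against a median of 1.31. Sik1 peaked in EV cells without IPTG in dexamethasone, at 1.95 above its own mean on the log2 scale, against 1.88 for Fkbp5, and stood at 1.28 in WT cells, against 1.52 for Fkbp5. Hspa8 came closest to B4galt1, a galactosyltransferase (0.03), then Sf3a2, Atp5g1, Cycs, which encodes cytochrome c, and Pxk, against a median of 0.28. Among the 10 genes themselves Fkbp4 and Stip1 were nearest to each other (0.03, with 22 and 10 genes nearer), and Fkbp5 was not near any of the others (1.05 from Hspa8).

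**Figure D4:**
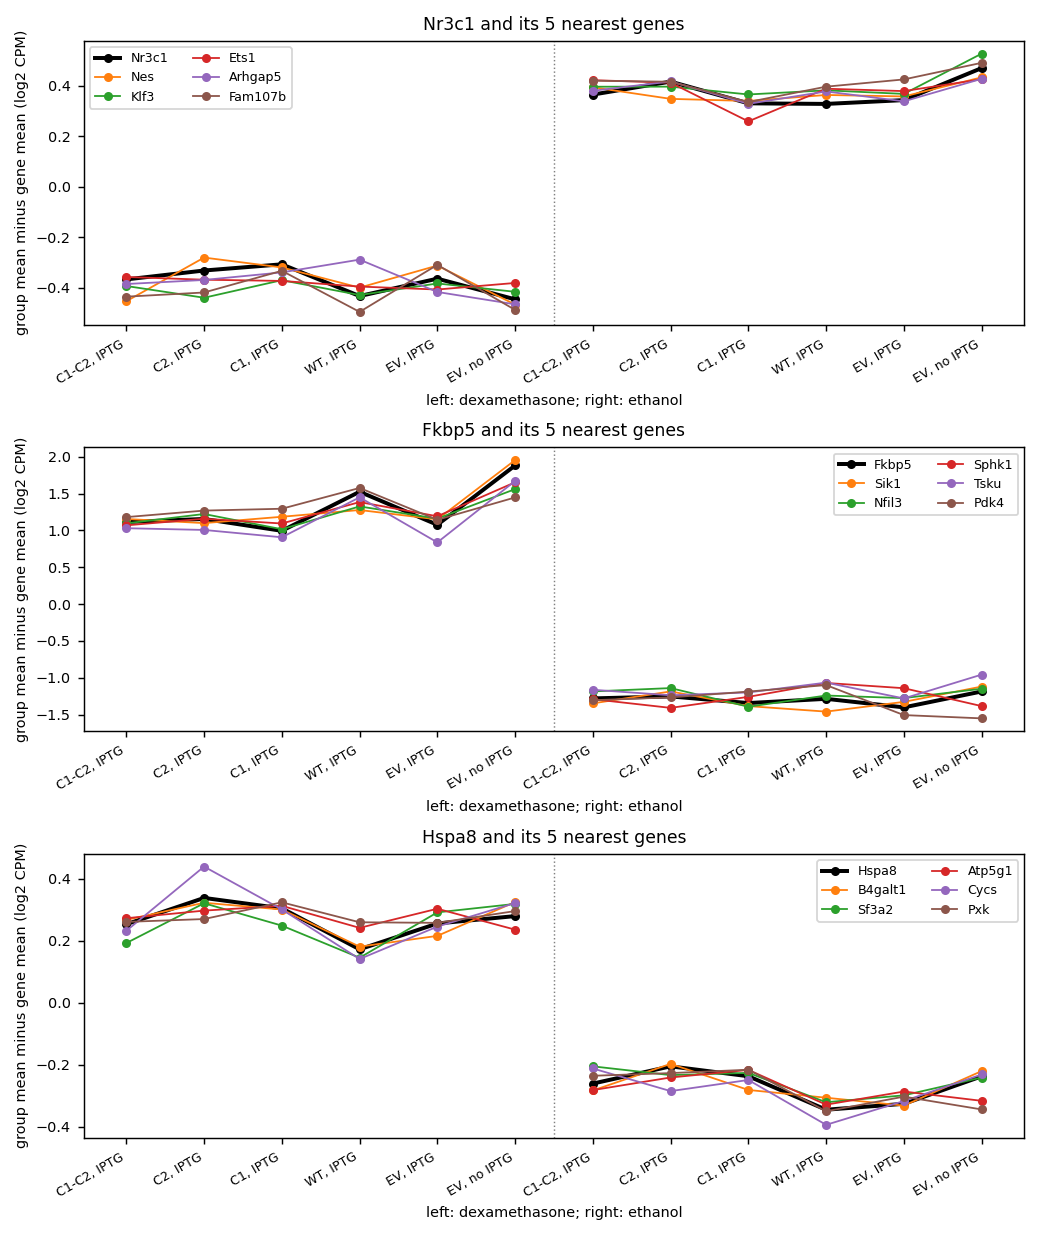
Mean log2 CPM of each of 12 groups minus the gene's own mean, for Nr3c1, Fkbp5 and Hspa8 (thick black) and the 5 genes nearest to each; dexamethasone groups stand left of the dotted line and ethanol groups right of it. Fkbp5 (1.88) and Sik1 (1.95) peak in EV cells without IPTG in dexamethasone, while Pdk4 stands at 1.58 in WT cells and 1.45 there, and the genes around Nr3c1 are low in dexamethasone and high in ethanol.

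Other parts of the chaperone system moved in both directions with dexamethasone. Of 24 tested cytosolic cochaperones (25 listed) 10 rose and 8 fell in EV cells without IPTG, and 9 rose and 6 fell in EV cells with IPTG, beside 38% of all genes called without IPTG and 32.5% with IPTG. The median log2 fold change was 0.09 in each, beside 0.01 over all genes. Sgta, which handles exposed hydrophobic segments, rose by 0.58 without IPTG (159 ± 6.47 CPM in dexamethasone, 106 ± 0.543 CPM in ethanol, SD, n = 2, edgeR adjusted p = 3.57e-10), and Nudc, an HSP90 cochaperone, rose by 0.46 on the log2 scale. Chordc1, an HSP90-binding zinc protein, fell by 0.63 (53.4 ± 1.73 CPM in dexamethasone, 82.5 ± 7.14 CPM in ethanol, SD, n = 2, edgeR adjusted p = 0.000602). With the GC trend removed the count without IPTG was 4 higher and 3 lower, where 22.4% of all genes were called, and Sgta kept its rise (0.32) and Chordc1 lost its fall (-0.08).

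Among 15 heat shock factors and heat-inducible chaperones 3 rose and 4 fell without IPTG and 4 rose and 3 fell with IPTG in EV cells, so that 7 of 15 were called in each, beside 38% of all genes without IPTG and 32.5% with IPTG. Hspb1, a small heat shock protein, rose by 0.93 (8.85 ± 0.0615 CPM in dexamethasone, 4.68 ± 0.607 CPM in ethanol, SD, n = 2, edgeR adjusted p = 4.16e-05) and Hsf1, the main heat shock factor, by 0.46 on the log2 scale in EV cells without IPTG. Hsf2 fell by 0.55 and Hspa4l, a nucleotide exchange factor of HSP70, fell by 0.54. After removal of the GC trend Hspb1 (0.63), Hsf1 (0.27) and Hspa4l (-0.20) kept their calls and Hsf2 (-0.04) did not. Of 8 tested other HSP70 and HSP90 genes (10 listed) 0 rose and 4 fell without IPTG, led by Hspa13 (-0.44) and Hsp90b1, the HSP90 of the endoplasmic reticulum (-0.41), beside 38% of all genes called, and after removal of the trend 1 fell, beside 22.4%. Of 9 tested other FKBP genes (12 listed) 3 rose and 1, Fkbp3 (-0.47), fell without IPTG, beside 38% of all genes called. After removal of the trend 0 rose, Fkbp3 lost its call (-0.08, edgeR adjusted p = 0.620) and another gene, Fkbp9, was called lower (-0.15, edgeR adjusted p = 0.0390), beside 22.4% of all genes. Fkbp9 is named here for being the single call, after its value was seen.

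Among the 5 lists, the genes for hormone access and nuclear import held the largest changes in EV cells without IPTG. H6pd, which supplies the cofactor that lets 11-beta-hydroxysteroid dehydrogenase make active glucocorticoid, rose by 1.27 on the log2 scale in EV cells without IPTG (95.6 ± 7.34 CPM in dexamethasone, 39.6 ± 0.00952 CPM in ethanol, SD, n = 2, edgeR adjusted p = 2.36e-14) and by 1.00 in EV cells with IPTG. Kpna2, an importin alpha, rose by 1.06 and 1.04 in the same states, with 184.5 ± 21.4 CPM in dexamethasone and 88.7 ± 0.318 CPM in ethanol in EV cells without IPTG (SD, n = 2, edgeR adjusted p = 4.34e-12). The other importins that passed without IPTG moved less, with Kpna4 at -0.41 and Kpna3 at -0.36. Of 14 tested genes (18 listed) 4 rose and 5 fell without IPTG, beside 38% of all genes called. With the GC trend removed 3 rose, H6pd (1.04) and Kpna2 (1.13) among them, and 0 fell, beside 22.4% of all genes.

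With knockdown fewer genes of each of these lists were called than with dexamethasone in EV cells, and a few were called in both treatments. Over all genes 13.4% were called in ethanol and 16.9% in dexamethasone. Of 15 heat shock factors and heat-inducible chaperones 4 rose and 0 fell in ethanol, and 3 rose and 0 fell in dexamethasone. With the GC trend removed 1 also fell in each. Their median log2 fold change was 0.08 in ethanol and 0.16 in dexamethasone. For dexamethasone against ethanol it was -0.07 without IPTG and -0.03 with IPTG in EV cells. Fkbp1a, the small immunophilin that binds FK506, fell by 0.62 on the log2 scale in ethanol (180.0 ± 4.31 CPM with IPTG, 276 ± 5.33 CPM without, SD, n = 2, edgeR adjusted p = 4.30e-07) and by 0.68 in dexamethasone (209 ± 18.7 CPM with IPTG, 334 ± 44.9 CPM without, SD, n = 2, edgeR adjusted p = 5.61e-08). Hspa4l rose by 0.48 in ethanol and 0.54 in dexamethasone, Fkbp14 by 0.50 and 0.44, Hspa1b by 0.65 and 0.47, Hspa12a by 0.35 and 0.45 and Hspb8 by 0.27 and 0.26. Ipo13, an importin, fell by 0.26 in ethanol and by 0.30 in dexamethasone. Hspa1b has a near-identical copy, Hspa1a, and its group means of 3.43 to 5.84 CPM are uncertain for that reason. The calls of all genes named here held with the GC trend removed.

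**Figure D5:**
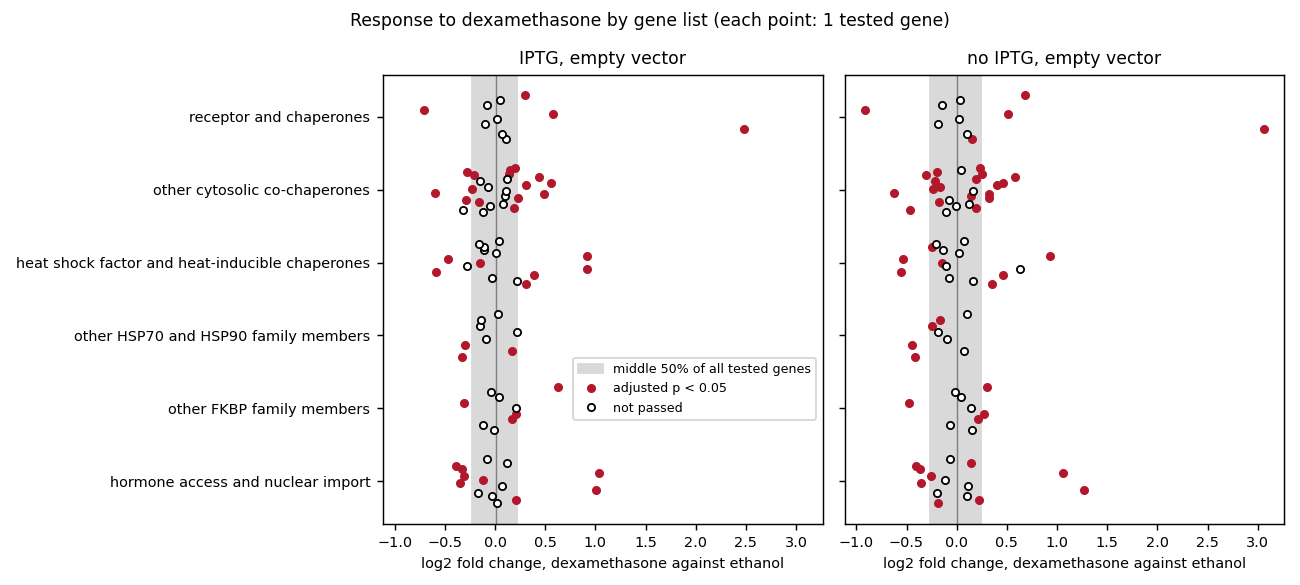
Log2 fold change for dexamethasone against ethanol of each tested gene of 6 lists in EV cells with IPTG (left) and without (right); filled points have an adjusted p under 0.05 and the grey band holds the middle 50% of all tested genes. Fkbp5 at 3.07 stands apart from all other points, followed by H6pd (1.27) and Kpna2 (1.06).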

How the data were processed

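RNA of 24 libraries was measured by ribosome-depleted stranded total RNA sequencing, per the labels' protocols. The authors deposited a table of raw counts per gene. Per the submitters' processing notes bcl2fastq 2.20, cutadapt 1.18, STAR 2.7.0f and featureCounts of Subread 2.0.3 were used with mm10; the strand setting and the handling of reads that match several places are not given in the sources used here. Samples were grouped by title.

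Counts were tested with edgeR 4.0.16 (quasi-likelihood, TMM factors, filterByExpr, 1 mean for each of 12 groups, 12 residual degrees of freedom) in R 4.3.3 over 16934 genes, with 38407 filtered out, for 21 comparisons. The median biological coefficient of variation was 6.43%. Intervals are 95% intervals of the fit. CPM are counts scaled to TMM-adjusted library size, log2 CPM use a prior count of 2, and levels per kilobase use the deposited length. GC content and transcript length came from GENCODE vM21, whose coordinates matched 55297 of 55341 genes, and their trend was removed through offsets (natural splines with 5 degrees of freedom). DESeq2 1.42.0, other filters and factors, removal of Gm26917 and Gm42418, a replicate block, each library left out and the conflicting library moved were alternatives. The test was also run on simulated counts, drawn with the spread of the fit itself and without a GC trend or batch. That run cannot show how the test deals with either.

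The 10 genes and the lists were chosen with earlier results of these data known. From each list and comparison up to 4 called genes with the largest log2 fold change were named; the 5 nearest genes had a mean of at least 5 CPM and were given for the 3 genes with the widest range over groups. The shorter promoter letters GAANNTTC were added after the longer ones had been searched. No other column of sample values was in the table (0 columns), and no pair of replicates was a duplicate.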

Additional observations from a re-analysis of the deposited data

Results flagged for a closer look

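Of the 10 genes 2 had a dexamethasone response that differed between EV cells with and without IPTG by a test of the difference itself, where 0.171% of all tested genes were called. Single libraries decided both calls, as given above. The response of Fkbp5 with IPTG minus that without was -0.59 on the log2 scale (SE 0.11, edgeR adjusted p = 0.0179), with log2 fold changes of 2.48 with IPTG and 3.07 without. That of Unc45a was -0.38 (SE 0.07, edgeR adjusted p = 0.00972), with 0.30 with IPTG and 0.68 without. With 2 libraries a group no single library could be tested for standing apart from its group.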

How the results depend on the processing

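The calls of Fkbp5, Nr3c1 and Hspa8 for dexamethasone held in all 6 states under every alternative except 1, the conflicting library moved. With that move they were lost in C1-C2 cells, as were nearly all calls of any gene there. Lost too were the calls among the 10 genes with knockdown in ethanol or dexamethasone and for WT against EV. The same held for C1, C2 or C1-C2 against WT in dexamethasone and for the difference of responses with IPTG. The move leaves 1 ethanol library of C1-C2 cells, and all groups share 1 estimate of spread. Fkbp5 with knockdown in dexamethasone stayed at -0.81 to -0.80 on the log2 scale over all settings with no library left out. For knockdown in ethanol the 1 gene called became 3 under the strict filter, 3 with a replicate block, 2 with the block within treatment and 0 with the GC trend removed. With either block WT against EV had 2, C2 against WT 4 and C1-C2 against WT 2 genes in dexamethasone, and C1-C2 had 2 with DESeq2. Over these settings the number of all genes called reached at most 2922 for knockdown in ethanol (2270 in the main fit). In dexamethasone it reached 1395 for WT against EV (712), 1750 for C2 (875) and 550 for C1-C2 (238) against WT. The difference of responses to WT had 1 gene for C1 and 1 for C2 without a filter or with the block within treatment, and 1 for C1-C2 without a filter. No label says that a replicate number marks a shared batch, and the numbers were not taken to pair the samples. Library names do run in blocks by replicate within a treatment, and deviations of same-numbered samples correlated over 0.1 in 20 of 30 pairs of groups of the same treatment and 23 of 36 across treatments (medians 0.23 and 0.19). With 1 library left out the number called ranged from 0 to 1 for knockdown in ethanol, 1 to 2 for WT against EV, 1 to 2 for C1, 0 to 3 for C2, 0 to 1 for C1-C2 (all in dexamethasone) and 0 to 2 for the difference of responses with IPTG.

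With the GC trend removed, values that had not passed changed sign, and so did the small rise of Bag3. Without IPTG dexamethasone gave -0.12 for Fkbp4, -0.10 for Hsp90ab1, 0.023 for Ptges3, -0.11 for Stip1 and -0.079 for Bag3, and in EV cells with IPTG -0.12 for Fkbp4, 0.0057 for Hsp90aa1, -0.11 for Hsp90ab1, 0.038 for Ptges3, -0.080 for Stip1 and -0.089 for Bag3. Knockdown in ethanol gave 0.00054 for Ptges3 and -0.036 for Bag3. The cause was not tested.

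Leaving out 1 library changed the sign of values that had not passed. For dexamethasone the log2 fold change of Hsp90ab1 ran from -0.021 to 0.067 and Stip1 from -0.065 to 0.12 without IPTG, and that of Hsp90aa1 ran from -0.20 to 0.00056, Hsp90ab1 from -0.0042 to 0.036 and Stip1 from -0.0024 to 0.11 in EV cells with IPTG. For knockdown that of Hsp90aa1 ran from -0.021 to 0.15, Hspa8 from -0.20 to 0.020 and Bag3 from -0.024 to 0.033 in ethanol, and that of Ptges3 ran from -0.038 to 0.12, Stip1 from -0.16 to 0.022, Hspa8 from -0.099 to 0.053 and Bag3 from -0.085 to 0.011 in dexamethasone. For the difference of responses Fkbp4 ran from -0.092 to 0.016, Hsp90aa1 from -0.018 to 0.18, Hsp90ab1 from -0.059 to 0.029, Ptges3 from -0.011 to 0.14, Stip1 from -0.063 to 0.12, Hspa8 from -0.052 to 0.17 and Bag3 from -0.092 to 0.0048.
The number of all genes called for dexamethasone without IPTG, 6438, ranged from 3795 to 7144 over the other settings. These are ranges of estimates and of counts over refits, and they do not say how small a change 2 libraries a group could detect.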
